A study of Mus musculus with 12 samples.

Results

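The genes described are those of the 2 nidogens (Nid1 and Nid2), of perlecan (Hspg2), of agrin (Agrn) and of dystroglycan (Dag1), chosen by symbol and not by their values. Each was measured by a single transcript cluster of an Affymetrix mouse gene array, so all 5 were found among 19938 genes with a usable symbol. The 12 arrays hold RNA of pooled islets, taken from the pancreas of RIP1-Tag2 mice on a C57BL/6 background at 8 weeks of age. On 6 arrays the islets had been sorted by appearance as angiogenic and on 6 as non angiogenic. Both groups carry the same transgene, in which the insulin promoter drives the SV40 T antigen oncogene in beta cells, so the comparison is between early tumor islets that have and have not gone through the angiogenic switch and holds no islets of wild type mice. The labels do not give the number of mice or islets in a pool, whether pools shared mice, or whether each array had its own pool. The p-values given rest on the variation among arrays alone, which may be technical. Levels are log2 values after RMA (robust multi-array average, which corrects the background, gives all arrays the same distribution and joins the probes of each cluster into 1 value), and a difference of 1 on this scale is a ratio of 2.

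A basement membrane is a thin sheet of matrix built on 2 networks, one of laminins and one of collagen IV. Nidogens bind both and link them, and the heparan sulfate proteoglycans perlecan and agrin fill the sheet and hold growth factors on their sugar chains. Dystroglycan is the receptor on the cell side, whose outer subunit carries a long sugar that binds laminins, perlecan and agrin, while its inner subunit spans the membrane and holds dystrophin or utrophin. In pancreatic islets this sheet lies around the capillaries and is made largely by vascular cells.

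RefSeq start sites of 4 of the 5 genes (all but Nid2) were matched in its table of mouse promoters, build GRCm38.p6. The 250 bases before the start are shown for the gene with the largest rise, for perlecan and for dystroglycan, the gene that did not pass the test, to let their base composition be compared. Capitals mark the GC box, GGGCGG on either strand.
Nid1, chr13:13437352-13437601, plus strand: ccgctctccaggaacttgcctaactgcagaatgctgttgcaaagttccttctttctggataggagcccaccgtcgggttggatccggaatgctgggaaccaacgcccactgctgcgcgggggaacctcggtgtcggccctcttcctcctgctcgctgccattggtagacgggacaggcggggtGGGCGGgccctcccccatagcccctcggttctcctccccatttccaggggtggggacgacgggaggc
Hspg2, chr4:137468553-137468802, plus strand: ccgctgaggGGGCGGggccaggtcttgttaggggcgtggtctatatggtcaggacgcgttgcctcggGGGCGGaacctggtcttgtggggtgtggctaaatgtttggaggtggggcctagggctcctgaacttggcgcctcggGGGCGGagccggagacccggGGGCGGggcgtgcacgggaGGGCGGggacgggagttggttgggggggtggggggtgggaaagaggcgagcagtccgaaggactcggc
Dag1, first listed start, chr9:108263959-108264208, minus strand: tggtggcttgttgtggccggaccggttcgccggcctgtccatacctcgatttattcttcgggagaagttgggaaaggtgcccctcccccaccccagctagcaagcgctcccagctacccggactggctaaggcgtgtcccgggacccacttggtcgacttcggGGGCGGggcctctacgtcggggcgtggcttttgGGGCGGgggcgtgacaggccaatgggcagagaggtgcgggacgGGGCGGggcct

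All 3 windows were rich in G and C, at 64.4% for Nid1, 70.0% for Hspg2 and 67.6% for Dag1, against a median of 52.4% over 32851 mouse promoter windows of the same length. The GC box was found 1 time in the window of Nid1, 5 times in that of Hspg2 and 3 times in that of Dag1, and 32.7% of all windows held at least 1. The first listed start of Agrn had 12 matches, some of which overlap, and a G and C content of 83.6%. The CCAAT box (CCAAT, either strand) matched 1 time in the windows of Nid1 and of Dag1 and in 33.8% of all windows. None of these windows held the letters TATAAA, found in 12.4% of all windows.

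Of the 5 genes, 4 rose in angiogenic islets and 0 fell, by limma and Benjamini-Hochberg adjustment over all genes at a threshold of 0.05, against 3.55% of all genes higher and 0.948% lower. Nid1 rose most, 1.98-fold, followed by Hspg2 at 1.45-fold, Nid2 at 1.44-fold and Agrn at 1.21-fold. Dag1, with a ratio of 1.10, did not pass. In rank of the difference among all 19938 genes, Nid1 was number 40, Hspg2 number 246, Nid2 number 253, Agrn number 797 and Dag1 number 1861. The study had selected Nid1, Nid2 and Hspg2 for a list of induced matrix genes on the same arrays, so their direction is not independent evidence. In RNA of whole islets, more cells of a type and more RNA per cell cannot be told apart.

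**Figure D1:**
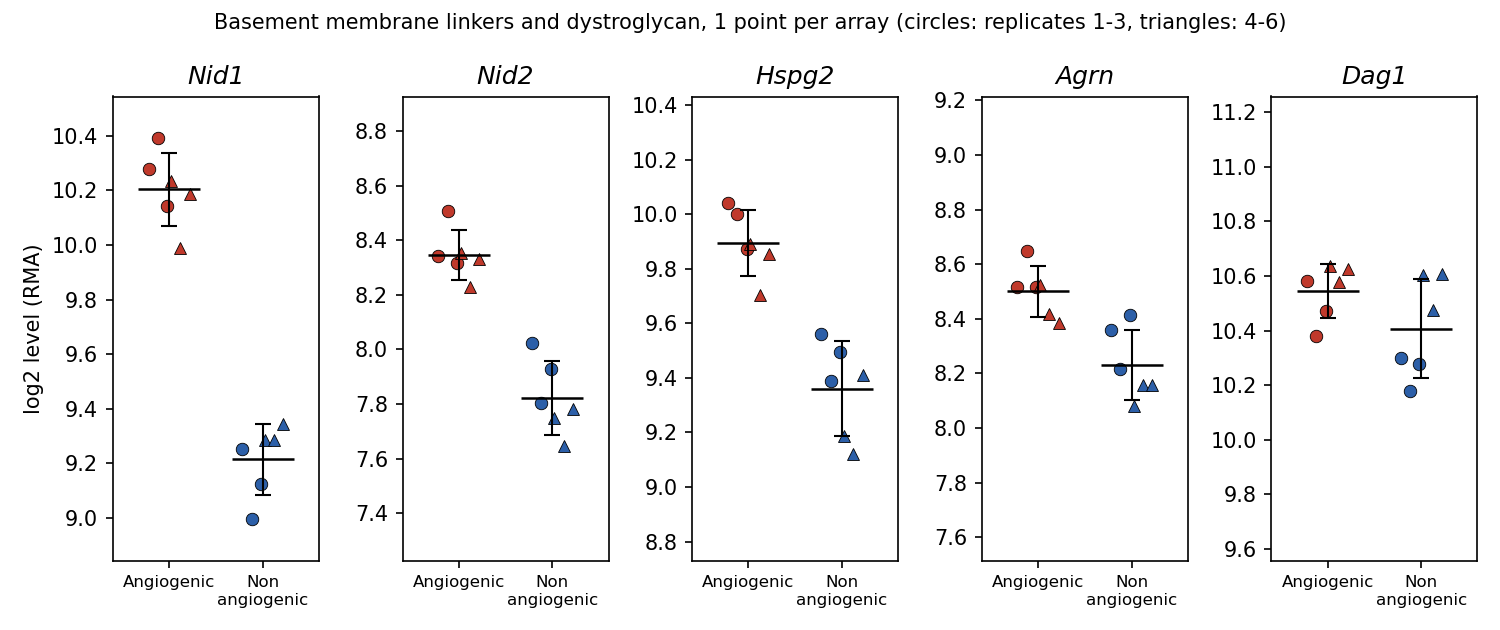
Log2 level (vertical axis, 1.7 log2 units high in each panel but centred on each gene) of the 5 genes in angiogenic (red, left) and non angiogenic islets (blue, right), 1 point per array, with circles for replicates 1 to 3, triangles for replicates 4 to 6, and the mean ± SD of 6 arrays in black. The groups are apart for Nid1, Nid2 and Hspg2, overlap by 1 array on each side for Agrn, and overlap widely for Dag1.

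Nid1 encodes nidogen 1, which binds the laminin γ1 chain and collagen IV. Its log2 levels in angiogenic islets were 10.28, 10.39 and 10.14 in replicates 1 to 3 and 10.23, 9.99 and 10.19 in replicates 4 to 6. In non angiogenic islets they were 9.25, 9.00 and 9.12 in replicates 1 to 3 and 9.29, 9.29 and 9.35 in replicates 4 to 6. Every angiogenic array lay above every non angiogenic one, with 0.65 log2 units between the nearest arrays. The means were 10.20 ± 0.13 in angiogenic and 9.22 ± 0.13 in non angiogenic islets (SD, n = 6 each), and the log2 difference was 0.99 (SE 0.07, adjusted p = 1.60e-06 from limma). The 95% confidence interval of the ratio ran from 1.78 to 2.21.

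Nid2 encodes nidogen 2, the second mammalian nidogen, which shares the domain plan of nidogen 1. Angiogenic islets had log2 levels of 8.34, 8.51 and 8.31 in replicates 1 to 3 and 8.35, 8.23 and 8.33 in replicates 4 to 6. Non angiogenic islets had 8.03, 7.80 and 7.93 in replicates 1 to 3 and 7.75, 7.65 and 7.78 in replicates 4 to 6. The groups did not overlap, and the nearest arrays were 0.20 apart. Nid2 averaged 8.35 ± 0.09 in angiogenic and 7.82 ± 0.13 in non angiogenic islets (SD, n = 6 each), and the log2 difference was 0.52 (SE 0.07, adjusted p = 1.80e-04 from limma). The ratio had a 95% confidence interval of 1.30 to 1.58.

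Hspg2 encodes perlecan, a large core protein with heparan sulfate chains that binds nidogens, laminins and fibroblast growth factors. In angiogenic islets its log2 levels were 10.04, 10.002 and 9.87 in replicates 1 to 3 and 9.89, 9.70 and 9.85 in replicates 4 to 6. In non angiogenic islets the levels were 9.56, 9.39 and 9.49 in replicates 1 to 3 and 9.19, 9.12 and 9.41 in replicates 4 to 6. The groups were again apart, by 0.14 between the nearest arrays. Hspg2 averaged 9.89 ± 0.12 in angiogenic and 9.36 ± 0.17 in non angiogenic islets (SD, n = 6 each), and the log2 difference was 0.53 (SE 0.08, adjusted p = 8.95e-04 from limma). The 95% confidence interval of its ratio ran from 1.28 to 1.63. Thus 3 of the 5 genes had all 6 angiogenic arrays above all 6 non angiogenic ones, which was the case for 2.85% of all genes.

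Agrn encodes agrin, the heparan sulfate proteoglycan that nerves use to cluster acetylcholine receptors and that vessels carry in their basement membranes. Its log2 levels in angiogenic islets were 8.51, 8.65 and 8.52 in replicates 1 to 3 and 8.53, 8.42 and 8.38 in replicates 4 to 6. Non angiogenic islets had 8.36, 8.22 and 8.41 in replicates 1 to 3 and 8.08, 8.16 and 8.16 in replicates 4 to 6. The only crossing was between angiogenic replicate 6, at 8.38, and non angiogenic replicate 3, at 8.41, which lie in different sets of replicates. Agrn averaged 8.50 ± 0.09 in angiogenic and 8.23 ± 0.13 in non angiogenic islets (SD, n = 6 each), and the log2 difference was 0.27 (SE 0.06, adjusted p = 0.026 from limma). This call was the least firm of the 4, since 7 of 12 fits that left out 1 array put it above the threshold (those without angiogenic replicate 1, 2 or 4 or non angiogenic replicate 2, 4, 5 or 6, adjusted p up to 0.062).

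Dag1 encodes both dystroglycan subunits, which are cut from 1 precursor. Its log2 levels in angiogenic islets were 10.58, 10.38 and 10.47 in replicates 1 to 3 and 10.64, 10.58 and 10.62 in replicates 4 to 6. In non angiogenic islets they were 10.30, 10.18 and 10.28 in replicates 1 to 3 and 10.61, 10.47 and 10.61 in replicates 4 to 6. All 3 non angiogenic arrays of the first set were lower than every angiogenic array, while the other 3 lay among the angiogenic ones. Dag1 averaged 10.55 ± 0.10 in angiogenic and 10.41 ± 0.18 in non angiogenic islets (SD, n = 6 each), and the log2 difference was 0.14 (SE 0.08, adjusted p = 0.49 from limma). The 95% confidence interval of its ratio, 0.979 to 1.24, holds no change as well as a rise of the size seen for Agrn.

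The arrays fell into 2 sets by replicate number, and replicates 4 to 6 differed from replicates 1 to 3 at 36.9% of all genes with group in the model. The study speaks of 2 profiling experiments without saying which arrays belonged to which. Between these sets Dag1 was 0.22 higher in replicates 4 to 6 (adjusted p = 0.0044 from limma), while Hspg2 was lower by 0.20 and Agrn by 0.16 (adjusted p = 0.017 and 0.021). Nid2 had a set difference of -0.14 (adjusted p = 0.054) and Nid1 one of 0.02 (adjusted p = 0.81). Since either set had 3 angiogenic and 3 non angiogenic arrays, the groups were also compared inside each.

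Within replicates 1 to 3, Nid1 was 2.21-fold, Hspg2 1.40-fold and Nid2 1.38-fold higher in angiogenic islets (adjusted p = 1.68e-04, 0.0083 and 0.016 from limma). Agrn and Dag1 did not pass there, with ratios of 1.17 each and adjusted p = 0.17 and 0.18, so 3 of the 5 genes were called against 2.37% of all genes. Within replicates 4 to 6, Nid1 was 1.78-fold, Nid2 and Hspg2 1.49-fold each and Agrn 1.24-fold higher (adjusted p = 6.58e-04, 0.0017, 0.0075 and 0.027), 4 of 5 against 3.11% of all genes. Dag1 had a ratio of 1.04 in this set (adjusted p = 0.79). All 3 angiogenic arrays lay above all 3 non angiogenic ones for each of the 5 genes in replicates 1 to 3 and for each but Dag1 in replicates 4 to 6, against 9.35% and 10.7% of all genes. With the set as a block, Agrn had adjusted p = 0.0017 and Dag1 adjusted p = 0.12, and the same 4 genes were called, against 5.88% of all genes.

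**Figure D2:**
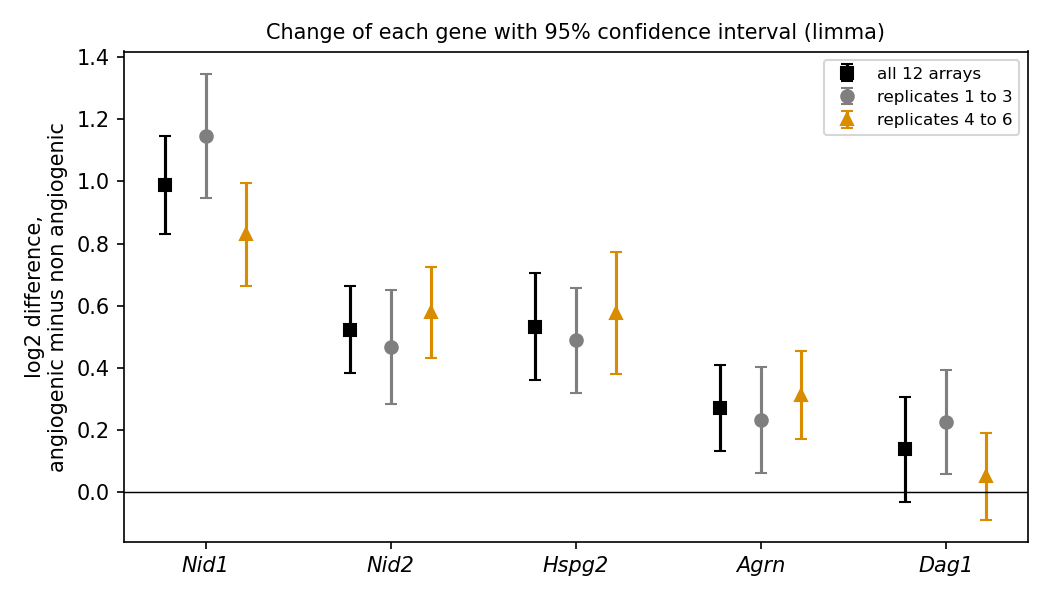
Log2 difference of angiogenic minus non angiogenic islets (vertical axis) for the 5 genes, with 95% confidence intervals from limma, over all 12 arrays (black squares), replicates 1 to 3 (grey circles) and replicates 4 to 6 (orange triangles). The intervals of Nid1, Nid2, Hspg2 and Agrn lie above 0 in all 3 fits, and that of Dag1 does so only in replicates 1 to 3.

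On the log2 scale Nid1 changed by 1.15 in the first set (replicates 1 to 3) and by 0.83 in the second (replicates 4 to 6). The difference of these changes, -0.32 with a 95% confidence interval of -0.57 to -0.06, did not pass the interaction test of limma (adjusted p = 0.74), which 0.00502% of all genes passed. For Dag1 the changes were 0.23 and 0.05, and their difference of -0.17 did not pass either (adjusted p = 0.79). The interaction of the remaining 3 genes lay between 0.08 and 0.11 (adjusted p = 0.86 or higher).

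Whether 2 of the genes changed unequally was tested on their log2 difference within each array, over all 10 pairs, with an exact permutation test over the 924 splits of the arrays (two-sided, adjusted over the 10 pairs). Nid1 rose more than each of the others. Its change exceeded that of Nid2 by 0.47 (95% interval from the same test 0.25 to 0.68), that of Hspg2 by 0.46, that of Agrn by 0.72 and that of Dag1 by 0.85, each with adjusted p = 0.0036 in the exact test. For each of these 4 differences the 6 angiogenic arrays were apart from the 6 non angiogenic ones. The excess over Nid2 came to 0.68 in the first set and 0.25 in the second.

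Nid2 and Hspg2 could not be told apart in their change. The change of Nid2 minus that of Hspg2 was -0.01, with an interval of -0.11 to 0.08 and adjusted p = 0.84 in the exact test. Both rose more than Agrn, by 0.25 for Nid2 and by 0.26 for Hspg2 (adjusted p = 0.0036 each, exact test). They also rose more than Dag1, by 0.38 and 0.39 (adjusted p = 0.022 and 0.035, exact test), but the first call was lost in 3 of 12 tests without 1 array (angiogenic replicate 1, 2 or 3, adjusted p up to 0.074) and the second in 8 of 12 (angiogenic replicate 1, 2, 3, 4 or 6 or non angiogenic replicate 4, 5 or 6, adjusted p up to 0.078). The change of Agrn was 0.13 above that of Dag1, with an interval of -0.20 to 0.46 and adjusted p = 0.39 in the exact test. Permuting within the 2 sets of arrays changed none of these calls. It gave adjusted p = 0.00625 for Nid2 and for Hspg2 against Dag1 (exact test over 400 splits). The tests without 1 array did not take the sets into account.

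**Figure D3:**
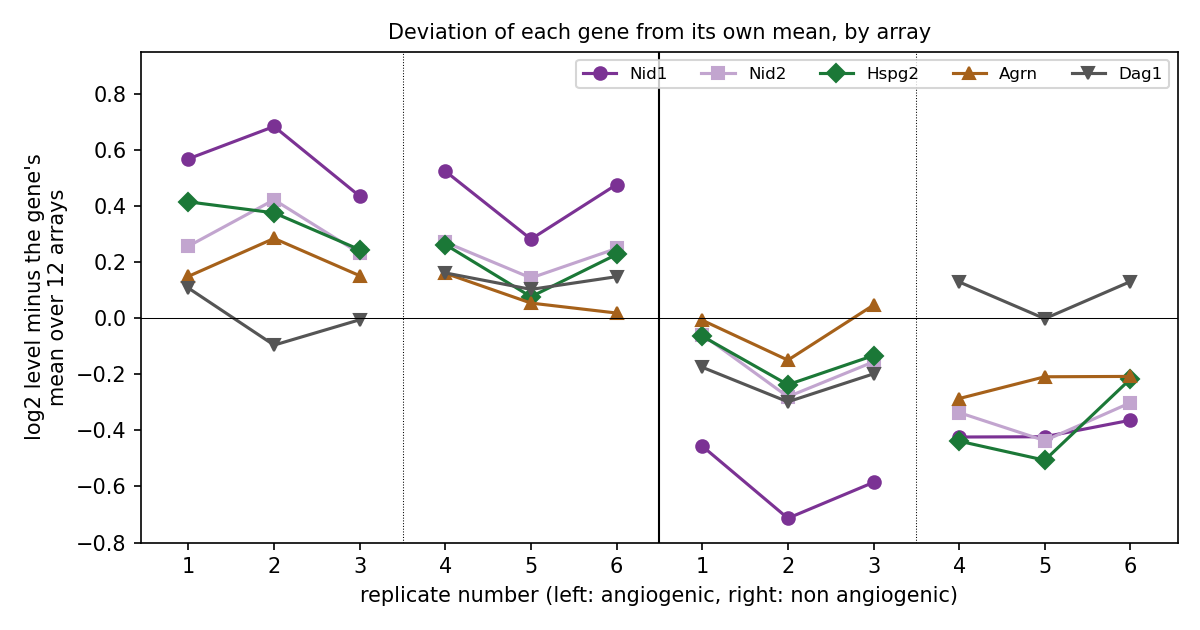
Log2 level of each of the 5 genes minus its own mean over the 12 arrays (vertical axis), by replicate, for angiogenic islets on the left and non angiogenic islets on the right, with dotted lines between replicates 1 to 3 and 4 to 6 and coloured lines that only join the points of a gene. Nid1 has the widest range, the lines of Nid2 and Hspg2 lie close together, and Dag1 is above its mean in non angiogenic replicates 4 and 6.

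Most of the pairs also varied together between arrays of the same group and set. After the mean of each group within each set had been taken away, the deviations of Nid1 and Nid2 over the 12 arrays had a Pearson correlation of 0.90, those of Nid1 and Hspg2 0.76 and those of Nid2 and Hspg2 0.74. Agrn followed Nid1 and Nid2 with 0.65 and 0.64, and Hspg2 with 0.42. Dag1 followed Hspg2 with 0.59, Nid1 with 0.25 and Nid2 with 0.24, and its correlation with Agrn was -0.05. These values describe 12 arrays that share their normalization and are given without a test.

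The genes with the most alike pattern over the 12 arrays were searched among 9968 others brighter than the median gene by Pearson correlation. For all but Dag1 this mostly follows the difference between the groups. For Nid1 they were the collagen gene Col1a2 (0.99, and 0.80 after the group and set means were taken away), the transcription factor gene Ebf1, the fibronectin gene Fn1, the periostin gene Postn and Peak1. For Nid2 the nearest were Dysf (0.99, and 0.94 after the means were taken away), Ltbp4, the semaphorin receptor gene Plxnd1, Col4a2 and Ecscr, which encodes an endothelial surface protein. Dysf encodes the membrane repair protein dysferlin and Ltbp4 a matrix protein that holds latent TGF-β. Hspg2 lay nearest to Jcad (0.98, and 0.94), an endothelial junction gene, then to Plxnd1, to Nid2 itself, to Ltbp4 and to Dysf. Nid2 and Hspg2 thus shared Dysf, Ltbp4 and Plxnd1 among their nearest 5. After the means were taken away, the neighbours past the first had lower correlations in most cases. They were 0.50 (Postn) to 0.74 (Ebf1) with Nid1, 0.71 (Ecscr) to 0.94 (Ltbp4) with Nid2 and 0.72 (Ltbp4) to 0.74 (Plxnd1) with Hspg2.

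For Agrn the list was led by Egfl7, which encodes a protein secreted by endothelial cells (0.96, and 0.81), and went on with Plxnd1, the receptor gene Notch3 and the proteoglycan gene Cspg4, both known from pericytes, and Meox1. Those after Egfl7 had 0.72 (Plxnd1) to 0.88 (Notch3) once the means were taken away. Dag1, which differed more between the sets (0.22) than between the groups (0.14), had other neighbours. They were the catenin gene Ctnnd1 (0.98, and 0.95), the cell cycle factor gene Tfdp1, Glmp, Rtn4ip1 and the RNA exosome gene Exosc1. None of these 5 passed the test between the groups (adjusted p = 0.46 or higher from limma), whereas the 5 nearest to each of the other 4 genes did. Since the neighbours were picked by correlation over the same arrays, this contrast follows from how they were picked. It is not separate evidence.

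Among 18 measured genes of laminin chains and basement membrane collagens, the sheet that nidogens and perlecan join, 10 were higher and none was lower, with a median log2 difference of 0.36 against -0.02 over all genes. The share of all genes that were higher was 3.55%. The 4 largest were Col15a1 (1.87-fold, adjusted p = 1.13e-06 from limma), Lama4, the laminin α4 chain of vessels (1.86-fold), Col4a2 (1.74-fold) and Lama2 (1.71-fold). Lamc1, whose γ1 chain holds the nidogen binding site, was 1.58-fold higher, and Lamb1, Lamb2, Lama5, Col4a1 and Col18a1 passed as well. Of these, Lama5 was 1.18-fold higher (adjusted p = 0.031) and lost its call in replicates 1 to 3 alone (ratio 1.10, adjusted p = 0.37) and in 8 of 12 fits without 1 array (angiogenic replicate 1, 2, 4, 5 or 6 or non angiogenic replicate 4, 5 or 6). The 8 that did not pass were Lama1, Lama3, Lamb3, Lamc3 and Col4a3 to Col4a6, of which Lama1 had the largest difference, 0.14 (SE 0.07). All 8 were dimmer than the median gene, while the genes that passed were brighter than it except Col18a1. Since RMA compresses weak signals, a small difference in the dim genes need not mean unchanged RNA. The study had itself picked several of these higher genes on the same arrays, so their direction is not independent evidence either.

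Of 17 other measured ligands and receptors of these proteins, 8 were higher and none lower, against 3.55% of all genes higher, with a median of 0.23. Prelp, which encodes a leucine-rich proteoglycan that binds perlecan, was 1.77-fold higher (adjusted p = 0.0013 from limma). Slit2 and Slit3, genes of guidance proteins that bind dystroglycan, were 1.63-fold and 1.43-fold higher, and Fbln2, whose fibulin 2 binds nidogens and perlecan, 1.49-fold. The study had selected Prelp, Slit2, Slit3 and Fbln2 for its list of induced matrix genes on the same arrays. Their direction is therefore not independent evidence. The others past the test were Fbln1, Ecm1, Itga2 and Itgb1, of which Itga2 lost its call in 11, Itgb1 in 8 and Fbln1 in 3 of 12 fits without 1 array. Fgf2, a growth factor held by perlecan, had a difference of 0.34 (SE 0.11, adjusted p = 0.11), and its adjusted p was 0.0025 once the set entered the model.

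Genes on the inner side of dystroglycan and those that build its sugar gave no call. As 3.55% of all genes were higher and 0.948% lower, lists this short can lack calls without differing from other genes. Of 12 measured genes of the dystrophin complex none passed in either direction, and the median was 0.09. The largest difference was that of Sgcz, a sarcoglycan gene, at -0.23 (SE 0.06, adjusted p = 0.053 from limma, and 0.023 with the set as a block). Of 14 measured genes of dystroglycan glycosylation none passed either, with a median of -0.03, and Dpm1 had the largest difference, -0.16 (SE 0.07). At an unadjusted p under 0.05 with the methods' t-test, 3 of the dystrophin complex were higher and 1 lower, and of the glycosylation genes none was higher and 1 was lower. At that threshold 1529 of all 19938 genes were higher and 1385 lower.

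Of 9 genes of the agrin receptor pathway at the nerve-muscle synapse, 1 was higher and none lower, against 3.55% of all genes higher. This was Lrp4, the receptor that binds agrin, with a log2 level of 7.58 ± 0.10 in angiogenic and 7.07 ± 0.12 in non angiogenic islets (SD, n = 6 each), a ratio of 1.43 and adjusted p = 1.64e-04 from limma. Its arrays did not overlap between the groups. Musk, the kinase that works with LRP4 in muscle, had a difference of -0.02 (SE 0.08), and the largest difference among the 8 that did not pass was that of the acetylcholine receptor gene Chrng, -0.15 (SE 0.09). The 9 genes were dim, with a mean of 6.35 to 6.54 in angiogenic and 6.28 to 6.55 in non angiogenic arrays. The array medians lay between 7.30 and 7.38. Since RMA compresses weak signals, a small difference in such genes need not mean unchanged RNA.

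Of 10 proteases known to cut one of these proteins, 3 were higher and none lower, against 3.55% of all genes higher. Mmp2, a gelatinase that cuts dystroglycan, was 2.70-fold, Adamts1, which cuts nidogens, 1.52-fold, and Ctss, cathepsin S, 1.31-fold higher (adjusted p = 2.47e-04, 7.42e-05 and 0.028 from limma). Mmp2 and Adamts1 were on the study's list of induced matrix genes from the same arrays, so their direction is not independent evidence. The call of Ctss was lost in replicates 1 to 3 and in replicates 4 to 6 alone (adjusted p = 0.21 and 0.051) and in 6 of 12 fits without 1 array (angiogenic replicate 2, 4 or 5 or non angiogenic replicate 1, 2 or 6), so those fits called 2 of the 10. Of the 7 that did not pass, Ctsl had the largest difference, 0.18 (SE 0.19).

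**Figure D4:**
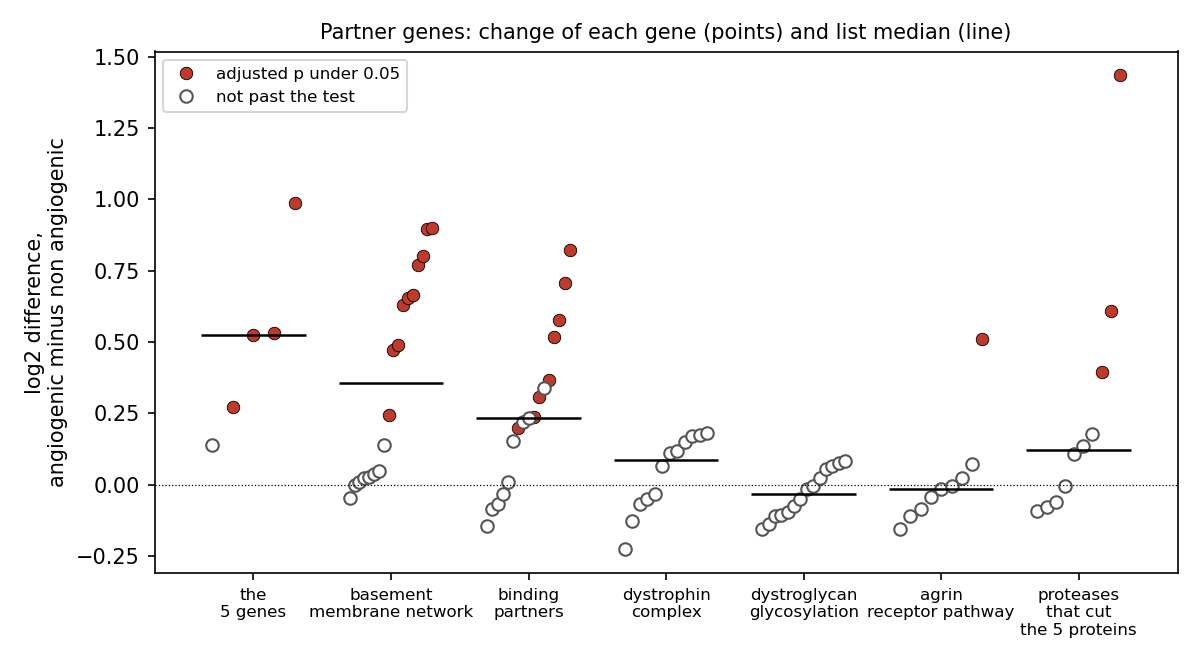
Log2 difference of angiogenic minus non angiogenic islets (vertical axis) for the 5 genes and for the measured genes of 6 lists of partners, 1 point per gene, filled red where limma gave an adjusted p under 0.05, with the median of each list as a line. Filled points are found among the basement membrane network, the binding partners and the proteases, 1 in the agrin receptor pathway (Lrp4), and none in the dystrophin complex or in dystroglycan glycosylation.

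Many markers of stromal cells were also higher in angiogenic islets. Of 12 endothelial markers 10 were higher, of 12 pericyte and smooth muscle markers 11, of 11 fibroblast markers 9 and of 11 macrophage markers 9, with none lower and median log2 differences of 0.54, 0.64, 0.94 and 0.51. Among all genes 3.55% were higher. The study had itself reported many of these markers as higher on the same arrays, so their direction is not independent evidence. The mean level of the endothelial markers ran from 9.58 to 9.73 in angiogenic and from 9.05 to 9.25 in non angiogenic arrays. The mean of the pericyte and smooth muscle markers ran from 8.39 to 8.77 in angiogenic and from 7.74 to 7.92 in non angiogenic arrays, and that of the fibroblast markers from 9.12 to 9.42 in angiogenic and from 7.98 to 8.44 in non angiogenic arrays. For the macrophage markers it was 8.56 to 8.88 in angiogenic and 8.12 to 8.37 in non angiogenic arrays. None of these 4 ranges overlapped between the groups. The part of these cells in the rise of Nid1, Nid2, Hspg2 and Agrn was not tested.

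Markers of ductal cells (5 measured), Schwann cells (6) and acinar cells (9) gave no call, against 3.55% of all genes higher and 0.948% lower. Of 9 beta cell markers 1 was lower, Ucn3, which fell by 0.25 on the log2 scale. With the set as a block 3 of them were lower, Ucn3, Nkx6-1 and Slc2a2 (adjusted p = 0.0037, 0.018 and 0.041 from limma). The beta cell markers averaged between 11.71 and 11.87 in angiogenic and between 11.76 and 12.03 in non angiogenic arrays, so they were high in every array. The acinar markers spread widely, from 7.71 to 10.96 in angiogenic and from 7.53 to 11.96 in non angiogenic arrays. Their median log2 difference was 0.34 over all arrays, 0.93 in replicates 1 to 3 and -0.10 in replicates 4 to 6, with no call in either set. With their mean as a covariate over all 12 arrays Agrn had adjusted p = 0.0016 and Dag1 adjusted p = 0.49 from limma, and the same 4 of the 5 genes were called. The fits within each set had no such covariate.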

How the data were processed

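For each of 12 arrays the authors deposited a log2 level of every transcript cluster, made with RMA in Affymetrix Expression Console per the submitters' processing notes. Of versions and genome build, none is stated in the sources used here, nor whether all arrays were normalized together. RMA compresses weak signals, and to a different degree for each cluster, so unequal log2 changes need not be unequal changes in RNA.

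Values were used as deposited, and array medians lay between 7.30 and 7.38. Of 35556 clusters, 21789 had 1 gene symbol, 1621 several and 12146 none here, and the brightest cluster per gene was kept. Symbols were checked by gene identifier against RefSeq (GRCm38.p6), and 0 changed. List genes with no such row were not analysed here.

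Groups were compared with limma 3.58.1 in R 4.3.3 (lmFit, eBayes, two-sided, 6 against 6 arrays, Benjamini-Hochberg over 19938 genes). With 6 arrays a group, their number limits the precision. Pairs of genes were compared by exact permutation. The named partners are, per list, the 4 largest differences past the threshold and the largest of the rest. Lamc1, Musk, Ucn3, Nkx6-1, Slc2a2 and the other listed names were added after their values were seen. Genes, lists and tests were chosen with earlier results of these data known. Alternatives were the methods' t-test, an intensity trend, array weights, 2 rescalings, leaving out dim genes or 1 array, all clusters of a gene, blocks by replicate or set, each set alone and acinar markers as a covariate. The other experiments of the study were not used here.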

Additional observations from a re-analysis of the deposited data

How the results depend on the processing

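Nid1, Nid2 and Hspg2 kept their direction and stayed past the threshold in all 13 alternatives and all 12 fits without 1 array, with log2 differences of 0.83 to 1.15, 0.47 to 0.58 and 0.48 to 0.58. Dag1 stayed short of it in all of them, with 0.05 to 0.23. Agrn was lost after quantile normalization (0.25, adjusted p = 0.068 from limma) and in replicates 1 to 3 alone (0.23), and ran from 0.24 to 0.31 without 1 array, with 7 of 12 fits short of the threshold. The rise above Dag1 ran without 1 array from 0.32 to 0.45 for Nid2 and from 0.32 to 0.46 for Hspg2. The cause was not tested.

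Of all genes, 708 were higher and 189 lower. With the set as a block these were 1172 and 547, with the replicate block 1058 and 449, by the methods' t-test without adjustment 1529 and 1385, without dim genes 467 higher, in replicates 1 to 3 alone 66 lower, and without angiogenic replicate 6 there were 110 lower. Of the binding partners, 5 in place of 8 were higher without dim genes, in replicates 1 to 3 alone, and without angiogenic replicate 6 or non angiogenic replicate 1. In the other direction, 11 were higher with the set as a block and 10 with the replicate block. By the unadjusted t-test 12 were higher and 2 lower. Lrp4 is a dim gene and left the test with the other dim genes. In the dystrophin complex 1 gene was higher with the replicate block, and 1 was lower with the set as a block, array weights, either rescaling, or without angiogenic replicate 3 or 4 or non angiogenic replicate 4. The beta cell markers had 1 lower, and 3 with the set as a block. By the methods' t-test with adjustment Ctss, Fbln1, Itga2 and Col18a1 lost their calls. Replicate numbers were not taken as pairs. Deviations from the group means of arrays with the same number, which also share a set, correlated between 0.03 and 0.54, with 2 of 6 angiogenic arrays closest to their own number, and deviations from the means of group and set correlated between -0.34 and 0.12. The replicate block changed no call of the 5 genes (Agrn adjusted p = 0.013, Dag1 0.13 from limma). Signal over background could not be judged from these values.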
